A study of Mus musculus with 672 samples.

Results

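Control lymphoid-primed multipotent progenitors (LMPPs) are single bone marrow cells of 2 mice that carry floxed, undeleted alleles of Mbd3 (Mbd3flox/flox), a subunit of the NuRD chromatin complex. Their count columns were chosen by their titles. Cells passed with 50000 or more counts on nuclear genes, 1000 or more such genes detected, no more than 20% of counts from mitochondrial genes and no more than 50% from spike-in RNAs. Of 96 sorted cells, 94 were kept, 47 from each of mice 18218 and 18220, out of 561 kept among 672 cells in all. The study sorted LMPPs and 2 later stages, the all-lymphoid progenitor (ALP) and, biased to B cells, the BLP, from femurs and tibiae of null (Mbd3del/del) and control mice, all aged 7 weeks and on a C57BL6/129Ola background. The LMPP gate took cells without lineage markers, B220 or IL-7Ra that were positive for Sca-1 and c-Kit and high in Flt3. The groups set beside the control LMPPs are null LMPPs (45 and 47 cells of mice 18217 and 18219), control ALPs (74 and 40 cells of mice 18218 and 18220) and control BLPs (34 and 35 cells of the same 2 mice). The control mice gave cells of all 3 gates, so the mouse is the replicate and the gate comparisons are paired by animal. The Cre line or other means that deleted Mbd3 in the null mice is not named in the sources used.

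LMPPs are an early, Flt3-high stage of blood formation that has largely lost the ability to make red cells and platelets and still gives rise to both lymphoid and myeloid cells. Such progenitors are known for priming, the low-level transcription of genes of several lineages before a cell commits to one of them. Mpo, Prtn3, Elane and Ctsg encode granule enzymes of the neutrophil line, Dntt encodes the template-independent polymerase of antigen receptor assembly, and Hlf is a transcription factor of stem cells. The question asked of these cells is how such transcripts are spread over, and combined within, single cells of one gate.

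The granule genes show how selective the myeloid transcripts of these cells were. Reads of Prtn3 were found in 59 of 94 cells and reads of Elane in 1 of 94 at equal depth, although the 2 genes start 6645 bases apart on chromosome 10. The 250 bases before the annotated start of each granule gene are shown for that reason, as given by RefSeq for GRCm38.p6. They lie at chr11:87793534-87793783 (plus strand) for Mpo, chr10:79879417-79879666 (plus strand) for Prtn3, chr10:79886062-79886311 (plus strand) for Elane and chr14:56102575-56102824 (minus strand) for Ctsg. Capitals mark matches on either strand to 4 short motifs known for factors of this lineage: TAACNG (Myb), GAGGAA (PU.1), TGTGGT (Runx) and TTNNGNAA (C/EBP).
Mpo: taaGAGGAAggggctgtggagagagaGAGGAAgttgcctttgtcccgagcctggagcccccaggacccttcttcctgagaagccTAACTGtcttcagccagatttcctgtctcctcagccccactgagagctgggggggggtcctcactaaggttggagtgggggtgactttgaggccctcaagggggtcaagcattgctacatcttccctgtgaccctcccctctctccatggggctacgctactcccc
Prtn3: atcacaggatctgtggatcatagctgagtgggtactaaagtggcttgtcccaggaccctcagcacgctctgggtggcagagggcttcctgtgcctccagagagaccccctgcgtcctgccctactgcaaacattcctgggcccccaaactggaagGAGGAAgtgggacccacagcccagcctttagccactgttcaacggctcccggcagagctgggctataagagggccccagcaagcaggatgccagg
Elane: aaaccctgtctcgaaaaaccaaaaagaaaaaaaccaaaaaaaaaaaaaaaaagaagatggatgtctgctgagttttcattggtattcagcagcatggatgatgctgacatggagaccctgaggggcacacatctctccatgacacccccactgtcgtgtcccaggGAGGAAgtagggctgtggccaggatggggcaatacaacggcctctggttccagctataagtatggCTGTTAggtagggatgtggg
Ctsg: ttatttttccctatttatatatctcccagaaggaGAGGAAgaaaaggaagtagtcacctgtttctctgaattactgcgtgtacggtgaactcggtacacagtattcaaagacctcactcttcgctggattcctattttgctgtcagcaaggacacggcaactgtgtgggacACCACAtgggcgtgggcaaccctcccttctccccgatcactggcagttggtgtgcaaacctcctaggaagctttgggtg
The Mpo window holds 2 PU.1 matches and 1 Myb match, the Prtn3 window 1 PU.1 match, the Elane window 1 PU.1 and 1 Myb match, and the Ctsg window 1 PU.1 and 1 Runx match. No C/EBP match lies in these windows. Of 32851 mouse promoter windows of the same length, 19.8% hold the Myb letters, 23.3% the PU.1 letters, 14.0% the Runx letters and 36.8% the C/EBP letters, so a match describes the letters and no binding.

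Per control LMPP, counts on nuclear genes ranged from 171755 to 12925945 (median 2072742.5), and detected genes from 7074 to 11125 (median 8709). Counts on all genes, mitochondrial genes included, summed over cells to 94775872 in mouse 18218 and 137497554 in mouse 18220. The range over the 12 libraries of the study was 53741264 to 137497554. Cell 12 of mouse 18218 (20859 counts) and cell 48 of mouse 18220 (53.0% spike-in) were left out. Shares of cells with a read are given after each cell was thinned to 50000 counts, where 1 read equals 20 CPM (a gene's counts scaled to the cell's nuclear gene counts). Many transcripts were also present at a few CPM in nearly every cell. Ebf1, which starts the B lineage programme, had a read in 71 of 94 unthinned cells, yet its highest level was 17.5 CPM. Ly6d, the surface protein that defines BLPs, had a read in 88 of 94 unthinned cells at medians of 3.88 and 2.61 CPM, and the lowest of 69 BLPs held 321 CPM. The lowest Dntt level of any cell was 13.6 CPM. The source of these low, even reads was not tested, so the number of cells at 100 CPM or more is given beside shares of cells with a read. That level was chosen after the per-cell values were seen.

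The markers that define the cells were present. At equal depth Flt3, the growth factor receptor used in the gate, Cd34, a surface sialomucin of progenitors, and Lmo2, a transcriptional adaptor of early blood cells, were read in 94 of 94 cells. Flt3 ranged from 119 to 3058 CPM (median 787) in mouse 18218 and from 144 to 3822 CPM (median 991) in mouse 18220. Car2, a carbonic anhydrase, was read in 93 of 94 cells, with medians of 1023 and 1112 CPM and a highest value of 7061 CPM. Kit, the receptor for stem cell factor, was read in 90 of 94 cells at medians of 401 and 452 CPM. Hlf was the marker with the widest on-off spread. It was read in 36 and 34 of 47 cells, reached 1195 CPM, stood at 100 CPM or more in 53 of 94 cells and below 20 CPM in 28. Il7r, whose protein the gate excludes, was at 100 CPM or more in 7 of 94 cells. Ly6d, which the LMPP gate did not use, reached that level in 0 of 94, which allows a share of up to 3.19%.

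**Figure D1:**
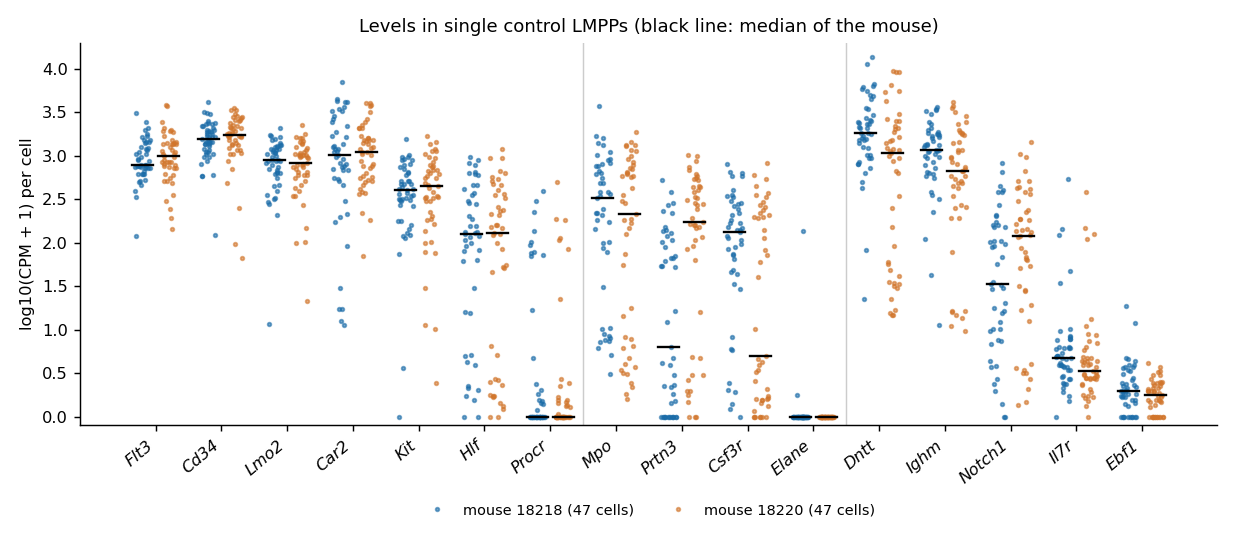
Level of 16 genes in each control LMPP, as log10 of CPM plus 1, with a point per cell, mouse 18218 left of mouse 18220 and a black line at the median of each mouse. Grey lines part stem, myeloid and lymphoid genes. Flt3, Cd34 and Lmo2 form single bands, while Hlf, Mpo, Prtn3, Csf3r and Dntt in mouse 18220 split into high and low cells, and Ebf1 reaches at most 17.5 CPM.

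The most abundant transcripts were ranked with ribosomal protein and mitochondrial genes left out. On a length-corrected scale (TPM, mean ± SD over 2 mice), B2m, the light chain of class I histocompatibility molecules, led at 21416 ± 408, followed by the cytoskeletal gene Actb at 9508 ± 286. Wfdc17, a small secreted-type protein gene of myeloid cells, followed at 3848 ± 242. Arhgdib, Gpx1, Ifitm3, Plac8, Tmsb4x, Eef1a1, Sh3bgrl3, Hsp90ab1, Dntt, H2-K1, Itm2b and H2-D1 completed the 15 most abundant genes, which together held 6.92% and 6.71% of TPM. Dntt, at 2538 ± 810 TPM, was the one of the 15 with the largest SD relative to its mean (3111 TPM in 18218, 1966 in 18220). Reads of H2-K1 and H2-D1 are uncertain, since these paralogs share sequence. Transcripts of 90 ribosomal protein genes took 3.28% and 3.71% of nuclear counts.

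Of the stem, myeloid and lymphoid lists, the stem list was the most widely read. Of 27 listed genes, 24 were read in over 10% of cells and 14 in over 50%, and a cell held reads of 11 to 22 of them (median 16 in both mice). Ifitm3, an interferon-inducible membrane protein, was read in 94 of 94 cells. Adgrl4, an adhesion receptor, was read in 47 and 45 of 47 cells, Lyl1, a partner of the stem cell factor Tal1, in 44 and 45, Gcnt2, a glycan-branching enzyme, in 44 and 42, and Ifitm1 in 43 and 41. The homeobox genes Meis1 and Hoxa9 were read in 43 and 40 cells and in 43 and 38 cells. Genes tied to the most primitive cells were found in fewer cells. Gata2, a factor of stem cells and early progenitors, was at 100 CPM or more in 13 of 94 cells, and Procr, the protein C receptor that marks repopulating stem cells, in 10. The long-term stem cell genes Slamf1 and Fgd5 had a read in 0 and 1 of 94 cells at equal depth. Muc13, a membrane mucin, split the cells most clearly, with 30 at 100 CPM or more and 57 below 20 CPM.

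Myeloid transcripts were frequent but stopped short of the granulocyte programme. Of 24 listed genes, 13 were read in over 10% of cells and 5 in over 50%, and a cell held reads of 3 to 13 (median 8 in both mice). Plac8 was read in 47 and 46 cells, Spi1, which encodes PU.1, in 44 and 42, Calr, a chaperone needed for peroxidase folding, in 45 and 41, and Lyz2, lysozyme, in 43 and 43. Mpo was read in 43 and 35 cells at medians of 323 and 210 CPM, reached 3699 CPM, and stood at 100 CPM or more in 32 of 47 cells of mouse 18218 and 29 of 47 of mouse 18220. Only 6 of 94 cells lay between 20 and 100 CPM of Mpo, and 27 lay below 20, so few cells held an intermediate level. Prtn3 differed between the mice: 13 of 47 cells of mouse 18218 and 31 of 47 of mouse 18220 reached 100 CPM, with medians of 5.26 and 171 CPM. Csf3r, the receptor for granulocyte colony-stimulating factor, went the other way, with 27 cells of mouse 18218 and 18 of mouse 18220 at that level. Cebpa, the factor that commits cells to the granulocyte line, reached it in 14 of 94 cells, Ctsg in 6 and Elane in 1. No read of Cebpe, Ms4a3, Fcnb, Hp or Igsf6, genes of later granulocytes and monocytes, was found in 94 cells at equal depth, which allows up to 3.19% for each.

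Lymphoid transcripts were mainly those of the shared early stage, and Ebf1 and Cd79a stayed below 100 CPM in all cells. Of 30 listed genes, 20 were read in over 10% of cells and 11 in over 50%, and a cell held reads of 6 to 18 (median 13 and 12). Mef2c, a factor that favours lymphoid fate, was read in 45 and 47 cells, Satb1, a chromatin organiser of lymphoid cells, in 46 and 43, Ighm, the heavy chain constant gene, in 45 and 43, and Ikzf1, a factor required for lymphoid cells, in 47 and 38. Dntt was read in 47 and 40 cells and spanned from 13.6 to 13672 CPM. All but 2 cells of mouse 18218 reached 100 CPM of Dntt, against 32 of 47 in mouse 18220, where the other 15 cells lay below it. Notch1 was at 100 CPM or more in 42 of 94 cells. The B lineage genes Blnk, a signalling adaptor, and Rag1, a recombinase, reached that level in 8 and 1 of 94 cells, and Ebf1 and Cd79a in 0. Of the same list, Cd79b and Rag2 were each read in at least 10% of cells of each mouse at equal depth. No cell held a read of Tcf7 or Ikzf3 at equal depth.

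**Figure D2:**
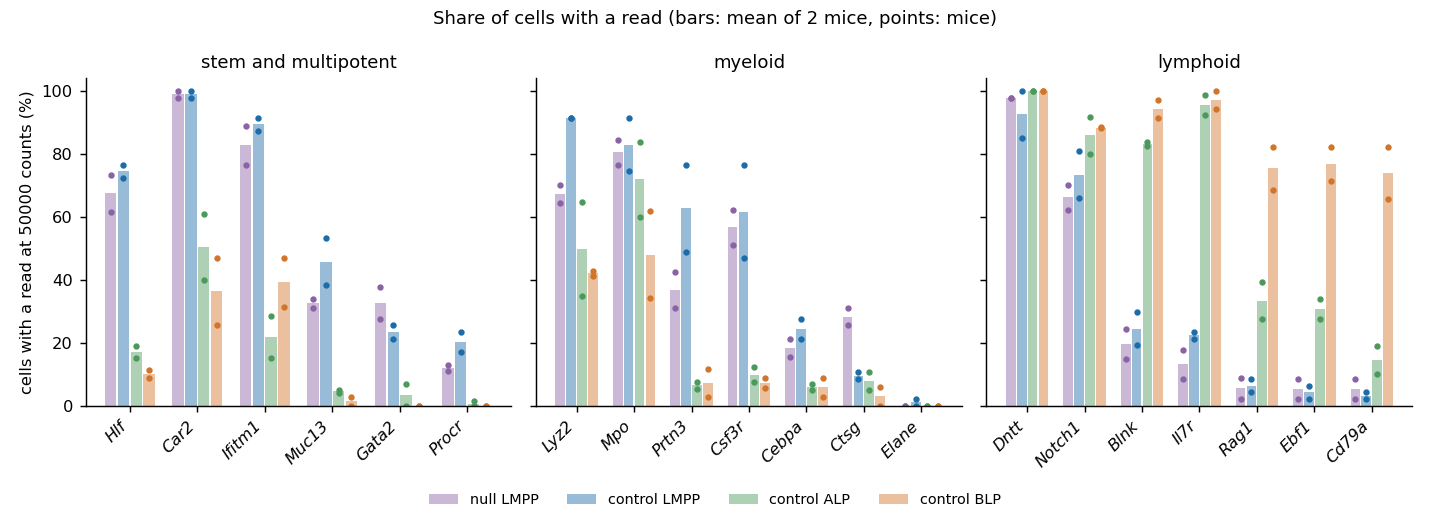
Share of cells with at least 1 read at 50000 counts per cell (percent) for 6 stem, 7 myeloid and 7 lymphoid genes in null LMPPs, control LMPPs, control ALPs and control BLPs. Bars are means of 2 mice and points the mice. Hlf, Muc13, Prtn3 and Csf3r stand high in the LMPP bars, Il7r and Blnk in the ALP and BLP bars, and Ebf1 and Cd79a in the BLP bars.

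Markers of other cell types were scarce, with a few exceptions. Of 16 erythroid and megakaryocyte genes, 5 had no read at equal depth, among them Epor, Vwf, Gp1bb and Car1, and the list's summed level was 113 and 156 CPM. Slc14a1, a urea transporter, was the only one in over 50% of cells (48 of 94). Of 19 NK and T lineage genes, 9 had no read, among them Cd3e, Cd3g, Cd3d and Gzmb. Nkg7, a granule membrane protein, was read in 76 of 94 cells, and Lck, a kinase of lymphoid cells, in 51. Of 16 macrophage and stromal genes, 9 had no read, including C1qa, C1qb, C1qc and Cdh5. Of 10 surface genes the lineage stain excludes, 4 had no read, among them Cd3e and Cd8a, and Itgam, an integrin of myeloid cells, was read in 21 of 94 cells. Among 15 dendritic genes, Tcf4 and Bst2 were read in over 50% of cells, and Siglech, a plasmacytoid dendritic marker, in 5 of 94.

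Stem, myeloid and lymphoid transcripts occurred in the same cells. With a read at equal depth as the criterion, Mpo and Dntt were found together in 73 of 94 cells, where the product of their shares within each mouse gives 72.8. Mpo, Dntt and Hlf were found together in 54 of 94 cells (34 and 20 of 47), where the product gives 54.5, and no cell lacked all 3. At 100 CPM or more, the 3 transcripts occurred together in 25 of 94 cells (16 of 47 in mouse 18218 and 9 of 47 in mouse 18220), where the product gives 28.5. Of the others, 48 cells reached 100 CPM for 2 of the 3, 20 for 1 and 1 for none. Mpo and Dntt both reached it in 50 cells. Co-detection therefore came close to what the single shares give, under either criterion. With a stricter myeloid and a further stem gene, Prtn3, Dntt and Meis1 reached 100 CPM together in 22 of 94 cells, where the product gives 24.1.

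Set beside the other gates, cells with all of Mpo, Dntt and Hlf at 100 CPM or more numbered 14 of 45 and 9 of 47 in null LMPPs, 16 of 47 and 9 of 47 in control LMPPs, 4 of 74 and 1 of 40 in control ALPs, and 1 of 34 and 0 of 35 in control BLPs. In ALPs and BLPs Dntt reached 100 CPM in 95% to 100% of cells per library, and Hlf in 2.50% to 6.76%. These shares were not tested between gates.

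**Figure D3:**
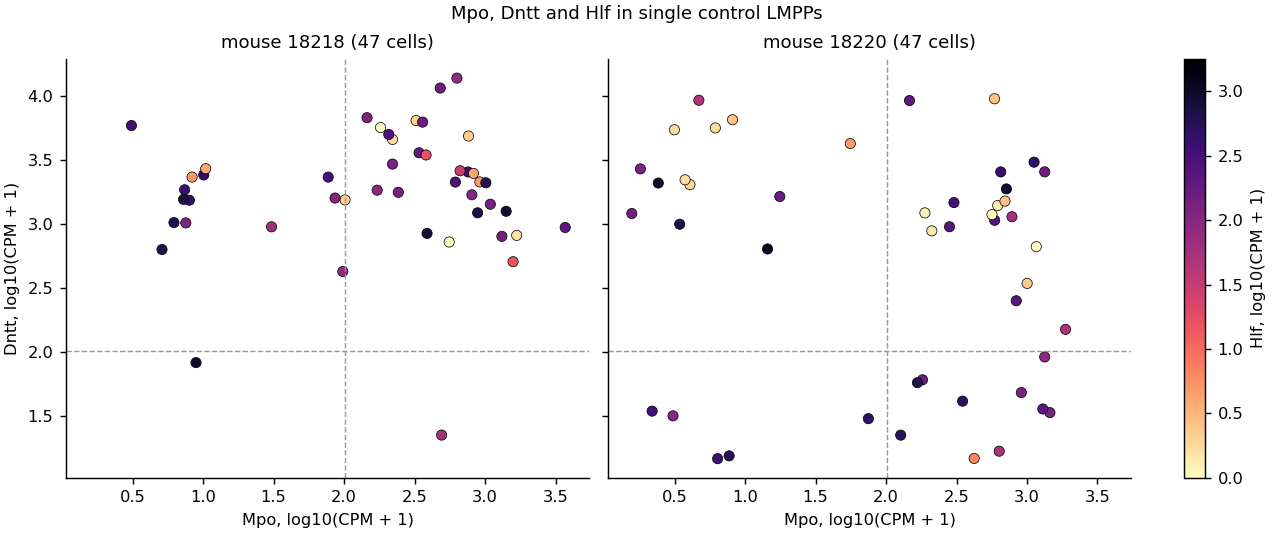
Dntt (y axis) against Mpo (x axis) in each of 94 control LMPPs, both as log10 of CPM plus 1, coloured by Hlf on the same scale. Dashed lines mark 100 CPM. Cells high in both fill the upper right, and mouse 18220 also has 15 cells low in Dntt, with dark (Hlf-high) and light points on both sides of the Mpo line.

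Across cells of a mouse, summed myeloid genes were nearly unrelated to stem and lymphoid genes. Summed stem and lymphoid genes were negatively related in mouse 18220 and only weakly so in mouse 18218. Spearman's rank correlation (47 cells in each mouse, CPM per cell, values in the order of mice 18218 and 18220) between summed stem and myeloid genes was -0.02 and -0.04, and between myeloid and lymphoid genes 0.04 and -0.05. For stem against lymphoid genes it was -0.14 and -0.37. Mpo against Dntt gave -0.07 and -0.17. Cells of a mouse share their library preparation and differ in depth, so these values are descriptions. Single genes also held much of the summed levels. Plac8 averaged 1968 and 1791 CPM, where the myeloid list averaged 4608 and 4597 CPM. Dntt averaged 2756 and 1818 CPM, where the lymphoid list averaged 7523 and 6011 CPM.

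Some pairs moved together in both mice. Prtn3, with rank correlation of 0.34 and 0.57, was the closest of 8100 genes to Mpo, followed by Calr (0.37 and 0.52), Heg1, Clec12a and Mrpl12. For Dntt the closest were Ppil4 (0.41 and 0.52), Elf1, Satb1 (0.53 and 0.26), Il12a, Cby1 and Mgst2. For Hlf they were Ctla2a (0.38 and 0.41), Mttp, Txnip, Serf1, Rab11fip1 and F2r, a thrombin receptor. For Mki67, a proliferation marker, they were Agps, Donson, Cdca3, Dnajc1, Tk1 and Pag1, of which Donson, Cdca3 and Tk1 are known from DNA replication or division. For Flt3 they were Rpusd4, Tmem138, Il12a, Jakmip1, Mcur1 and Arhgef10, and for Car2, Tstd2, Selenop, Was, Paqr7, Gramd1a and Il1r1. Not all of these held in both mice or at equal depth. Tstd2 with Car2 gave 0.16 and 0.67, and -0.09 and 0.41 with thinned counts. Thinned values were 0.14 and -0.07 for Pag1 with Mki67, and 0.004 and 0.32 for F2r with Hlf. The highest values were picked from 8100 genes, with means over both mice of 0.33 to 0.46, so the order among them carries little weight.

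A pair of opposed transcripts was seen after all values had been examined. Irf8, a factor that steers progenitors to monocytes and dendritic cells, was the gene with the lowest rank correlation against Hlf, at -0.48 and -0.45. With counts thinned to equal depth the values were -0.42 and -0.39. Irf8 reached 100 CPM in 28 of 94 control LMPPs, and it was positively related to Clec12a, a myeloid inhibitory receptor, at 0.30 and 0.37. Dntt and Ighm were related at 0.28 and 0.51, and Hlf and Car2 at 0.31 and 0.27.

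To separate spread between cells from counting noise, each gene's squared coefficient of variation was set against a curve through added spike-in RNAs (50 in mouse 18218 and 56 in mouse 18220). The excess is the log2 ratio to that curve. Of 8101 named coding genes read in at least 10% of cells of each mouse, 3861 lay above the curve in both mice. The median excess over all 8101 genes was 0.22. Above the most variable spike-in of both mice (1.66 and 1.18) lay 44 genes, and 13 lay more than 4-fold above the curve in both. The 2 mice ranked genes alike only in part, with a rank correlation of 0.50 across genes, which are not independent replicates, and 14 genes shared between their 100 highest.

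Dntt had the largest mean excess (3.90 and 4.16). Fos followed (3.10 and 4.22), then Serpina3g (5.25 and 1.68), a protease inhibitor, and Rsad2 (4.93 and 1.09), an antiviral enzyme. In mouse 18218, a single cell held 50.1% of the Serpina3g reads, and a single cell 68.0% of the Rsad2 reads. The next were Cenpa, Plac8, Tubb5, Car2, Slc34a2, Ms4a6b, Ifi44, Wfdc17, Cdc20, Usp18, Ifit1, Cd69, F11r, Iigp1, Dusp2 and Ly6a, with mean excess of 2.29 to 2.85. Several of these also rested largely on 1 cell, which held 60.8% and 71.7% of the Cdc20 reads in the 2 mice and, in mouse 18220, 64.4% of Cenpa, 64.8% of F11r and 51.2% of Ifit1. Among them Cenpa, Tubb5 and Cdc20 belong to dividing cells, and Ifi44, Usp18, Ifit1 and Iigp1 to the interferon response. Of the defining markers, Car2 ranked 8, Flt3 247, Cd34 428, Hlf 479, Kit 1466 and Lmo2 2253 among the 8101 genes. Mpo ranked 33.

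**Figure D4:**
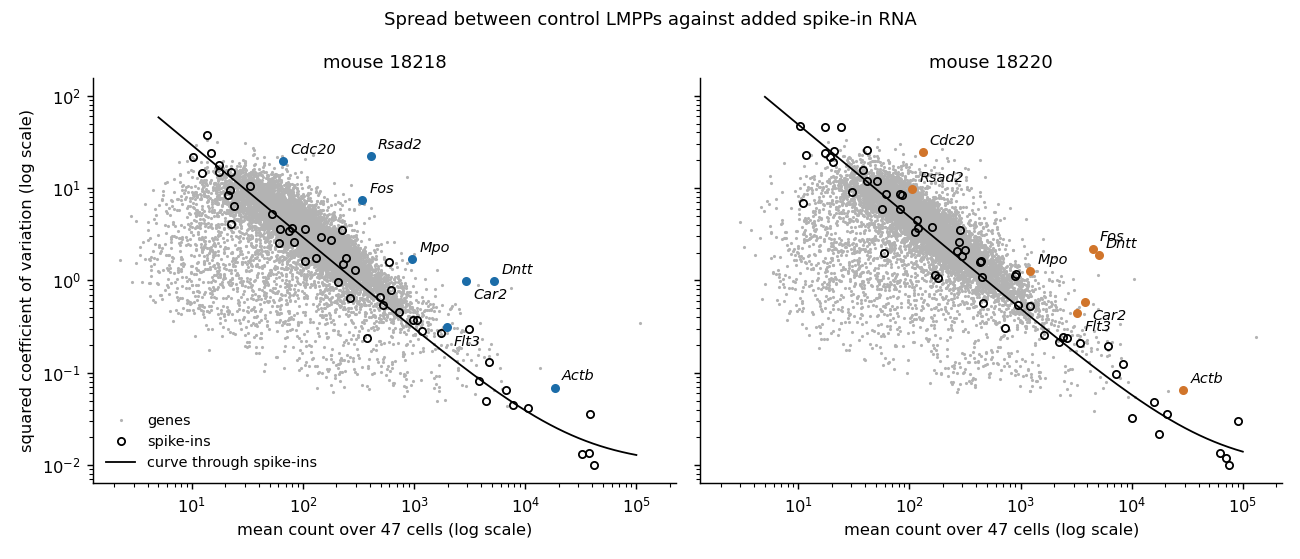
Squared coefficient of variation against mean count over 47 control LMPPs of each mouse, both on log scales, with genes in grey, spike-in RNAs as open circles and a line fitted through the spike-ins. Dntt and Fos lie far above the line in both mice, Rsad2 and Cdc20 lie above it at lower counts, and Flt3 lies nearer to it.

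Interferon-induced genes were high in a minority of cells. Of 22 listed genes, a control LMPP held reads of 4 to 21 (median 10) in mouse 18218 and 4 to 19 (median 9) in mouse 18220. At least 15 of them were read in 5 and 3 cells. The 5 highest cells held 44.7% and 30.2% of the list's summed level, against 15.4% and 15.3% for the stem list. Ifit1, Rsad2 and Usp18, 3 antiviral response genes, all reached 100 CPM in 5 of 94 cells, where the product of their shares gives 0.530, and 61 cells reached it for none. These 3 genes are among the 20 with the largest excess, and were chosen with that known, so the count is a description. Cells with all 3 numbered 0 of 45 and 0 of 47 in null LMPPs, 3 of 47 and 2 of 47 in control LMPPs, 0 of 74 and 1 of 40 in control ALPs, and 0 of 34 and 0 of 35 in control BLPs. With 2 mice a group, these shares were not tested.

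Immediate early genes differed between the 2 mice. Fos was read in 18 of 47 cells of mouse 18218 (mean 179 CPM) and 33 of 47 of mouse 18220 (mean 1607 CPM). Jun, Junb, Egr1, Dusp1 and Zfp36 were also higher on average in mouse 18220. The summed list of 20 immediate early and heat shock genes averaged 1648 and 4801 CPM in the 2 mice. The ALPs (1181 and 3359 CPM) and BLPs (1436 and 4216 CPM) of the same 2 mice showed the same order. The rank correlation between Fos and Zfp36 was 0.19 and 0.77, and between Fos and Egr1 0.33 and 0.76. The cause was not tested.

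The share of control LMPPs with transcripts of late cell cycle depended on depth and on the limit set. At 50000 counts per cell, cells with reads of at least 4 of 24 G2 and M phase genes numbered 14 of 47 (29.8%, exact 95% interval 17.3 to 44.9) in mouse 18218 and 11 of 47 (23.4%, 12.3 to 38.0) in mouse 18220. The interval covers counting error only. With the criterion at 2 genes the shares were 63.8% and 59.6%, and at 8 genes 12.8% and 6.38%, and with the limit of 4 genes at 200000 counts they were 36 of 46 cells (78.3%) and 22 of 47 (46.8%). Mki67 was read in 7 and 8 cells and Top2a, a topoisomerase of dividing cells, in 21 and 16. The 5 highest cells held 72.7% and 72.4% of the summed G2 and M level. S phase genes were wider spread: all 22 were read in over 10% of cells, with Mcm6, a subunit of the replicative helicase, in 41 and 38 cells and Pcna, the polymerase clamp, in 37 and 42.

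Hlf, Meis1, Car2, Flt3 and Prtn3 averaged less in cells over the limit of 4 genes at 50000 counts than in the others, in both mice. Dntt and Mpo averaged more in both mice. Cd34 did not go the same way in both mice. It averaged 1674 CPM over the limit and 1649 CPM in the others of mouse 18218, and 1687 and 1820 CPM in mouse 18220. Hlf averaged 116 CPM in the cells over the limit and 283 CPM in the others of mouse 18218, and 162 and 253 CPM in mouse 18220. Meis1 averaged 261 and 370 CPM in mouse 18218, and 119 and 379 CPM in mouse 18220, in that same order of cells. Dntt averaged 3634 CPM over the limit and 2383 CPM in the others of mouse 18218, and 2301 and 1670 CPM in mouse 18220. Single cells over the limit in mouse 18220 ranged from 34.7 to 9134 CPM of Dntt. Mpo averaged 814 and 375 CPM in mouse 18218, and 455 and 437 CPM in mouse 18220, in that same order of cells. Cells over the limit also had more genes detected at equal depth (5538 and 4206, then 4449 and 4056.5) and more nuclear counts per spike-in count (14.0 and 8.10, then 8.89 and 7.28), and the part of RNA content in these differences was not tested. With 2 mice these are descriptions.

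The first 2 principal components of the 500 genes with the largest excess, centred within mouse, held 5.09% and 3.49% of the variance. Genes with the largest loadings on component 1 were Mcm4, Mcm2, Mcm3, Mcm5, Tipin, Nasp, Rrm1, Cse1l, Lig1 and Cdk1 at one end, among them 4 Mcm helicase genes, and Tsc22d1, Rgs1, Ccl3, Il21r, Fos, Zfp36, Mn1, Ppp1r15a, Rgs2 and H1f0 at the other. Component 2 ran from the interferon and immune genes Ifi44, Ms4a6b, Serpina3g, Iigp1, Ifit1, Irf7, Usp18, Rsad2, Isg20 and Oasl1 to Car2, Fars2, Selenop, Tsc22d3, Dok2, Txnip, Rbm43, Hlf, Manba and Mettl27. Component 1 had a rank correlation of 0.73 and 0.64 with summed S phase genes and of 0.58 and 0.53 with genes detected at equal depth. With summed interferon genes it was -0.50 and -0.39, so these genes were not confined to component 2. With the summed immediate early and heat shock list it was -0.08 and -0.52, so that relation was seen in mouse 18220 only. Component 2 had a rank correlation of 0.48 and 0.53 with summed myeloid genes, of 0.55 and 0.22 with Mpo, of 0.40 and 0.44 with summed S phase genes, of 0.37 and 0.33 with summed interferon genes, and of -0.35 and -0.35 with Hlf.

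**Figure D5:**
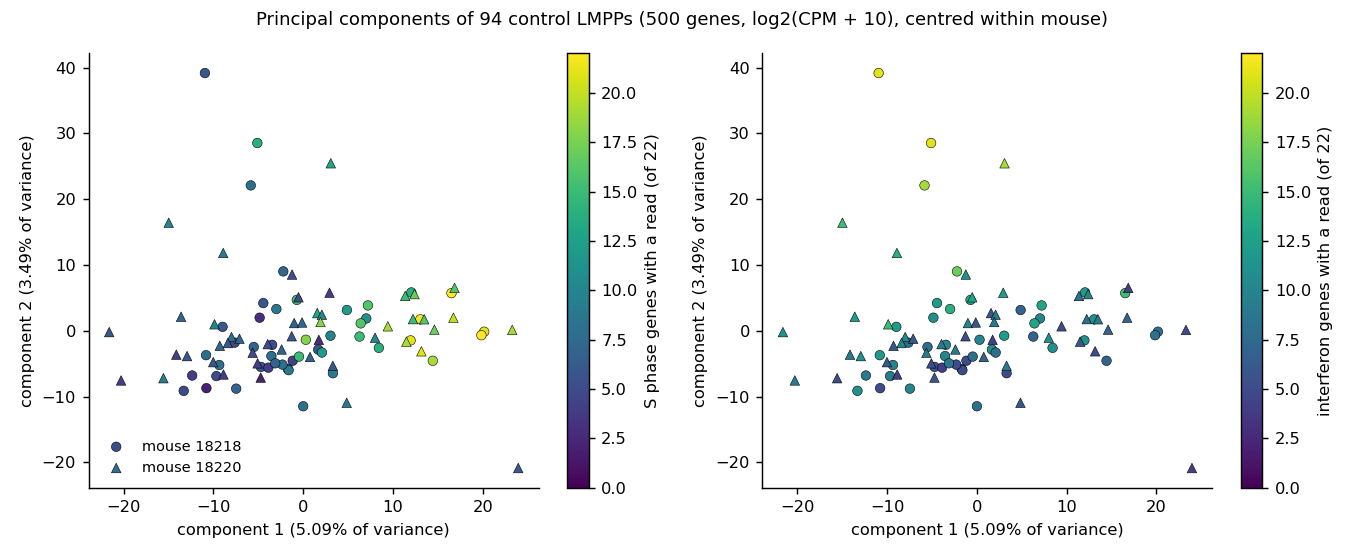
Control LMPPs on the first 2 principal components (circles mouse 18218, triangles mouse 18220), coloured by the number of 22 S phase genes (left) and of 22 interferon genes (right) with a read at 50000 counts. S phase genes increase to the right along component 1, and the few cells high on component 2 hold the most interferon genes.

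To compare gates, counts were summed per mouse and gate and tested with edgeR over 19903 genes, in a fit of all 12 libraries. Levels in these comparisons are CPM of the summed library, scaled by TMM. Fewer expressing cells and less RNA per cell cannot be told apart in such sums. Between control LMPPs and control ALPs, 54 genes passed an adjusted p of 0.05 (0.271% of those tested), of which 19 were higher in LMPPs (0.0955%) and 35 lower (0.176%). At an unadjusted p under 0.05 there were 1745. With the mouse as a replicate block 32 passed, 24 of them among the 54. Without mouse 18218, 1 gene passed, without mouse 18220, 0 passed, and without null mouse 18217 or 18219, 7 passed each, and in those fits a lone library stands for its group and is assumed to vary like the others.

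A group of stem genes rose in LMPPs relative to ALPs. Of 27 listed, 6 rose (Hlf, Lmo2, Procr, Ifitm1, Ifitm3 and Muc13) and 0 fell, with a median log2 fold change of 1.67 beside 0 over all genes. Muc13 stood at 153 and 124 CPM in LMPPs, against 0.606 and 0.761 CPM in ALPs, a log2 fold change of 7.66 ± 1.00 (SE, adjusted p = 0.0216, and 0.0716 with the replicate block). It was read in 43 of 94 LMPPs and 5 of 114 ALPs. Hlf stood at 196 and 213 CPM in LMPPs, against 22.7 and 9.77 CPM in ALPs (3.65 ± 0.42, adjusted p = 0.0167, and 0.0661 with the block). Lmo2 stood at 878 and 830 CPM in LMPPs, against 141 and 132 CPM in ALPs (2.64 ± 0.20, adjusted p = 0.00214). Car2 had 1513 and 1163 CPM in LMPPs, against 146 and 73.9 CPM in ALPs (3.60 ± 0.48, adjusted p = 0.0240, and 0.0601 with the block). The 2 mice of each gate did not overlap for any of these 4 genes, but that was a condition for naming genes by size. Ifitm1 (4.32), Wfdc17 (3.95), Akr1c13 (2.72), an aldo-keto reductase, and Afap1l1 (2.60), an actin-binding protein, also rose. With the block Ifitm1 still passed, and Wfdc17, Akr1c13 and Afap1l1 did not (adjusted p = 0.0741, 0.0741 and 0.0820). Procr did not pass with the block (adjusted p = 0.0741), so 3 of the 6 stem calls were lost with it. Procr had reads in 19 of 94 LMPPs and in 1 of 114 ALPs, where its 2 libraries held 8 and 2 reads, so no fold is given. Flt3 differed by 0.01 (adjusted p = 1), Kit by 2.19 (adjusted p = 0.0761) and Cd34 by 1.14 (adjusted p = 0.387), and these did not pass.

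A group of lymphoid genes fell in LMPPs relative to ALPs. Of 30 listed, 7 fell (Il7r, Dntt, Rag1, Ighm, Ebf1, Blnk and Ly6d) and 0 rose, with a median log2 fold change of -1.31. Il7r, which the gates used, stood at 26.7 and 14.5 CPM in LMPPs, against 622 and 874 CPM in ALPs (-5.18 ± 0.34, adjusted p = 0.000869). Dntt, although abundant in LMPPs, stood there at 2692 and 1517 CPM, against 9223 and 8218 CPM in ALPs (-2.05 ± 0.27, adjusted p = 0.0216). Gfra1, a receptor subunit for glial-derived growth factor, was read in 3 of 94 LMPPs and 43 of 114 ALPs. It had the largest fall among the genes named by size (-8.17 ± 0.98, adjusted p = 0.0184, and 0.0575 with the block). Its LMPP libraries held only 31 and 9 reads, so the size of that fall is uncertain. Cox6a2 (-6.79), a muscle-type cytochrome oxidase subunit also found in plasmacytoid dendritic cells, Blnk (-4.84), Tnni1 (-4.56), a troponin, Ly6d (-4.39), Crem (-4.11), a cAMP-responsive factor, and Pld4 (-3.77) fell as well. With the block Blnk, Ly6d, Pld4, Rag1 and Ighm did not pass (adjusted p = 0.0655, 0.118, 0.0524, 0.0654 and 0.0575).

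The myeloid list did not move as one between LMPPs and ALPs. Of 19 members tested, 0 rose and 1 fell, Clec12a (-1.58 ± 0.20, adjusted p = 0.0216, and 0.0776 with the block). Most members had higher values in LMPPs, with 15 positive and 4 negative and a median of 1.02 beside 0 over all genes. The list's summed level per cell averaged 4608 and 4597 CPM in LMPPs, against 6011 and 6849 CPM in ALPs, and Plac8 made up the largest part. Mpo stood at 498 and 385 CPM in LMPPs, against 421 and 182 CPM in ALPs, and Prtn3 at 60.6 and 263 CPM in LMPPs, against 1.54 and 19.3 CPM in ALPs. Neither gene passed. None of the 24 G2 and M genes and none of the 22 S phase genes passed, although 24 and 21 of them had negative values (medians -2.34 and -0.61). Cells with at least 4 G2 and M genes made up 29.8% and 23.4% of LMPPs and 58.1% and 40.0% of ALPs.

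Between control LMPPs and control BLPs, which share the LMPP libraries with the comparison above, 188 genes passed (0.945%), 71 higher in LMPPs (0.357%) and 117 lower (0.588%), with 2732 at an unadjusted p under 0.05. With the replicate block 126 passed, 105 of them among the 188. Without mouse 18218, 3 genes passed, without mouse 18220, 0 passed, and without the null mice 18217 or 18219, 43 and 40 passed. Of the stem list, 10 of 27 rose and 0 fell (median 2.30, beside 0 over all genes), and of the lymphoid list 9 of 30 fell and 0 rose (median -1.64). Among the stem genes, Cd34 and Angpt1 did not pass with the block (adjusted p = 0.0528 and 0.0761), nor did the lymphoid gene Rag2 (0.0585). Gcnt2 stood at 438 and 440 CPM in LMPPs, against 6.51 and 21.2 CPM in BLPs (4.98 ± 0.72, adjusted p = 0.0225).

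Csf3r was the myeloid gene with the largest difference from BLPs. It stood at 182 and 112 CPM in LMPPs, against 0.368 and 0.468 CPM in BLPs (8.45 ± 0.90, adjusted p = 0.0052), and was read in 58 of 94 LMPPs and 5 of 69 BLPs. Lyz2 also rose (2.43), while Ly86 (-5.15), Clec12a (-1.90) and Plac8 (-0.85) fell, and with the block Lyz2, Ly86 and Plac8 did not pass (adjusted p = 0.0909, 0.0629 and 0.0784). Rab38, a GTPase of lysosome-related organelles, was read in 58 of 94 LMPPs and 1 of 69 BLPs (9.66 ± 1.42, adjusted p = 0.0234, and 0.0664 with the block). Ddx4, an RNA helicase known as a germ cell marker, was read in 48 of 94 LMPPs and in 0 of 69 BLPs at equal depth, and stood at 152 and 101 CPM in LMPPs, against 0.417 and 0.210 CPM in BLPs (8.66 ± 1.41, adjusted p = 0.0357, and 0.0533 with the block). Serpini1, a serine protease inhibitor (6.57), Muc13 (6.93) and Wfdc17 (5.47) rose too. The BLP libraries held only 30 and 49 reads of Csf3r, 22 and 33 of Rab38, and 34 and 22 of Ddx4. They held 87 and 17 reads of Serpini1 and 21 and 209 of Muc13. The sizes of the folds of these genes with few reads are therefore uncertain. Osgin1, an oxidative stress gene, had reads in 16 of 94 LMPPs and only 9 and 2 reads in the BLP libraries, so no fold is given.

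The genes lowest in LMPPs against BLPs were B lineage genes in part. Ly6d stood at 3.95 and 4.28 CPM in LMPPs, against 2793 and 3749 CPM in BLPs (-9.63 ± 0.83, adjusted p = 0.00257), a difference the gate set. Colq, a collagen-tailed anchor of acetylcholinesterase, fell by 9.10 and was read in 0 of 94 LMPPs and 34 of 69 BLPs. Blk (-8.93), a kinase of B cells, Epha2 (-8.92), Hes1 (-8.44), a Notch target, Vpreb2 (-9.41), a surrogate light chain gene whose paralog Vpreb1 may take part of its reads, Gas7 (-8.37) and Cd79a (-8.32), a chain of the B cell receptor, followed. Ebf1 (-8.16) and Pax5 (-7.79), a factor that fixes B cell identity, were lower too. With the block Vpreb2, Gas7 and Cd79a did not pass (adjusted p = 0.0748, 0.0788 and 0.0760). The LMPP libraries held only 9 and 12 reads of Epha2, 11 and 27 of Vpreb2, 8 and 22 of Gas7, and 12 and 41 of Hes1. They also held only 25 and 31 reads of Colq. The sizes of these folds are therefore uncertain. In BLPs 1 cell of each mouse held 61.3% and 60.4% of the Gas7 reads.

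Interferon genes were higher in LMPPs than in BLPs for 3 of 22 members, Ifi27 (1.19), Oasl2 (3.41) and Oas1a (2.96), and all 22 had positive values (median 2.19). With the block Ifi27 and Oas1a did not pass (adjusted p = 0.0557 and 0.0906). Against ALPs 0 of 22 passed. The summed list averaged 3805 and 2635 CPM per cell in LMPPs, against 1529 and 2193 CPM in ALPs and 1333 and 1120 CPM in BLPs, and the medians were 2373 and 2117 CPM in LMPPs, against 1212 and 1330 CPM in ALPs and 1266 and 994 CPM in BLPs.

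Between null and control LMPPs no gene passed with edgeR (0%), 1345 had an unadjusted p under 0.05, and DESeq2 called 495. Mbd3 itself stood at 0.189 and 24.7 CPM in null LMPPs, against 48.1 and 137 CPM in control LMPPs (-2.90 ± 1.63, adjusted p = 0.742). The deleted part of the gene is not named in the sources used. At equal depth Mbd3 was read in 1 of 45 and 5 of 47 null LMPPs, against 18 and 29 of 47 control LMPPs. A single cell held 98.3% of the Mbd3 reads of null mouse 18219. All 22 interferon genes had negative values (median -1.27), with a summed level of 2037 and 1872 CPM in null LMPPs, against 3805 and 2635 CPM in control LMPPs. These are means that a few cells raise, and the medians were 1795 and 1653 CPM in null LMPPs, against 2373 and 2117 CPM in control LMPPs. All 24 G2 and M genes had positive values (median 1.44), with 1780 and 787 CPM in null LMPPs, against 746 and 736 CPM in control LMPPs, with medians of 452 and 263 CPM in null LMPPs, against 181 and 212 CPM in control LMPPs. Whether the step between LMPPs and ALPs differed between genotypes depended on the test. In the edgeR interaction test 0 of 19903 genes passed, with 1044 at an unadjusted p under 0.05, while DESeq2 called 239.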

How the data were processed

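The authors deposited counts of reads per gene and cell. The submitters' processing notes name GSNAP 2015-09-29, HTSeq 0.5.3p3 and the mm10 genome. Single cells were sorted into plate wells and prepared with the full-length protocol of Picelli and colleagues and an Illumina XT kit, then sequenced on a HiSeq instrument, per the labels' protocols. The sources used name neither the annotation release nor a strand setting, so antisense and overlapping genes cannot be told apart. Counts are of reads, not of tagged molecules, and intervals and limits cover counting error only. In control LMPPs, 46.5% of deposited counts fell on genes, 5.72% on spike-ins, 11.0% on no feature, 5.71% were ambiguous and 31.2% were not aligned; only gene counts entered library sizes. Symbols, positions and exon lengths came from the GENCODE annotation of GRCm38 (45143 of 46078 identifiers matched). No doublet caller was run, since cells were sorted singly, and no 2 control LMPPs had identical counts (0 pairs).

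Per-cell CPM used nuclear gene counts. Cells were thinned to 50000 counts for shares. Summed counts per mouse and gate were tested with edgeR 4.0.16 (TMM, filterByExpr, glmQLFit and glmQLFTest) in R 4.3.3 over 12 libraries in 6 groups (6 residual degrees of freedom, biological coefficient of variation 86.9%), with Benjamini-Hochberg adjustment and a threshold of 0.05. Standard errors are the size of the log2 fold change over the square root of F. DESeq2 1.42.0, other scaling, filters, thinned cells, all cells, left-out mice and a replicate block were alternatives. The same animal gave all gates, which pairs the libraries, per the titles; deviations of same-animal control libraries correlated by 0.0295 to 0.0507 across genes. The edgeR script was tested on simulated counts.

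Members and gene lists were chosen with earlier results of these data known. Named genes followed a rule. It took markers and gate genes, up to 8 genes per direction and comparison, and up to 6 members per list by share plus those past the threshold. It also took the 15 most abundant, the 20 with the largest excess, 6 per anchor gene and 10 per component end. Genes per comparison had the largest fold changes past the threshold, a mean of 20 CPM or more and no overlap between mice. Genes named beyond this rule, such as Irf8 with Hlf and the list members at 0, were chosen after their values were seen. Some members of these lists are not reported here.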

Additional observations from a re-analysis of the deposited data

How the results depend on the processing

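Counts of genes past the threshold depended strongly on the fit. For control LMPPs over ALPs (54 genes) and over BLPs (188 genes), DESeq2 called 920 and 1898, no low-count filter 179 and 447, and cells thinned to 50000 counts 165 and 455, while a fit of only the libraries compared called 0 and 20. Leaving out 1 mouse gave 0 to 7 and 0 to 43 genes. The replicate block gave 32 and 126; it ended the calls of 15 and 16 named genes, and no block could be fitted between null and control LMPPs, which are of different mice. Scaling by RLE (55 and 185) and keeping all cells (61 and 197) moved little, and all 54 and all 188 genes were among those DESeq2 called. For null over control LMPPs, where edgeR called 0, DESeq2 called 495, no filter 8 and thinned cells 1; for the difference between genotypes they were 239, 3 and 0. No called gene among those named changed direction under these alternatives. Shares of cells with a read depended on the criterion: of 99 genes, 78 moved by more than the spread between mice at 100 CPM or more, 26 at 10 or more reads, 55 at 200000 counts per cell and 86 without thinning. Mpo and Dntt were together in 77.7% of control LMPPs, and in 87.2%, 83.0% and 53.2% at 200000 counts, at 10 reads and at 100 CPM. Cells with at least 4 G2 and M genes made up 78.3% and 46.8% at 200000 counts. The cause of these shifts was not tested. Of 36 highest rank correlations, 14 moved with thinned counts, whose range was 0.03 to 0.47, against 0.33 to 0.46 before. With 2 mice per group and 1 read worth 20 CPM at the thinned depth, differences at low levels were not detectable.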
